A study of Mus musculus with 9 samples.

Results

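The 33 genes described here encode parts of the cornified envelope and of the desmosome. They were chosen by gene symbol, and all 33 were found among the 53342 genes of the deposited mouse bladder table. By role they were 14 small proline-rich genes, of which 11 belong to the Sprr2 subfamily, 4 genes of envelope precursors and plakins (Ivl, Cnfn, Evpl and Ppl), 3 transglutaminase genes (Tgm1, Tgm3 and Tgm5), 6 desmosomal cadherin genes (Dsg1a, Dsg2, Dsg3, Dsc1, Dsc2 and Dsc3) and 6 genes of the desmosomal plaque and its membrane partners (Dsp, Jup, Pkp1, Pkp2, Pkp3 and Perp).

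The cornified envelope is a cross-linked protein layer that forms under the plasma membrane of squamous epithelial cells late in their differentiation. Transglutaminases join involucrin, small proline-rich proteins and plakins into this layer by bonds between glutamine and lysine residues. Desmosomes hold neighbouring epithelial cells together: desmogleins and desmocollins span the gap between cells, and plakoglobin, plakophilins and desmoplakin link them to keratin filaments. The urothelium that lines the bladder has desmosomes but does not normally cornify, and small proline-rich proteins are also made in internal epithelia.

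RNA-seq was performed on bladders of female wild-type C57BL/6N mice, aged 8 weeks at the start, with 3 libraries in each of 3 groups. The H2O2/saline-treated group received 1.5% H2O2 into the bladder on day 0 and saline into the peritoneal cavity on days 0 and 4. The H2O2/SB431542-treated group received the same H2O2 infusion, with injections of SB431542, an inhibitor of the TGF-beta type I receptor ALK5, on the same days. The labels give the control mice as untreated whereas the study calls them sham. Its methods report a saline infusion into the bladders of control mice in the inhibitor experiment. With these differing accounts, the handling of these 3 is uncertain. Bladders were taken on day 10. The labels name the whole bladder and the study's methods a hemisphere of it, so each library mixes epithelium, muscle, stroma and blood-derived cells. SB431542 was given to the whole animal and was not directed to the epithelium. The design calls the 3 libraries of a group biological replicates, and nothing else states that they came from separate mice.

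The 9 libraries held 37329213 to 41055328 counts, so differences in depth were small. Levels are given as CPM, counts scaled to a common library size with a TMM factor for each library (0.910 to 1.07). Differences were tested with edgeR's quasi-likelihood test over the 19314 genes that passed its filter on low counts, and p values were adjusted by Benjamini-Hochberg over all of them. A gene was called at an adjusted p under 0.05.

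Many of these genes stood higher in H2O2/saline-treated than in control bladders, mainly in 2 of the 3 H2O2/saline libraries. Over the 22 members that passed the filter, the median deviation of log2(CPM + 0.5) from the control mean was 1.09 in H2O2/saline 2 and 0.85 in H2O2/saline 3, against 0.12 in H2O2/saline 1. In this median H2O2/saline 1 was therefore close to the 3 controls, whose medians were 0.10, -0.02 and 0.03. The likeness did not hold for every gene. Its sums of basal and squamous keratins and of leukocyte genes, given below, lay above all controls. In H2O2/saline 1 these sums were mostly Krt5 and Krt4, and Cd74 and Csf1r. The H2O2/SB431542 libraries showed the same split, with 0.56 and 0.63 in replicates 2 and 3 and 0.03 in replicate 1. Of the 22 members, 13 had their highest level in H2O2/saline 2 and 3 in H2O2/saline 3. The lowest level was in H2O2/saline 1 for 6 members, in control 2 for 6 and in control 3 for 5. The replicate 1 library of each group also had more genes with a count (26475, 27198 and 28154 in the control, H2O2/saline and H2O2/SB431542 groups) than the other 6 libraries (21810 to 24524). H2O2/saline 1 was kept under its label, and whether that label is right was not tested. Group means and fold changes of H2O2/saline depend on it.

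**Figure D1:**
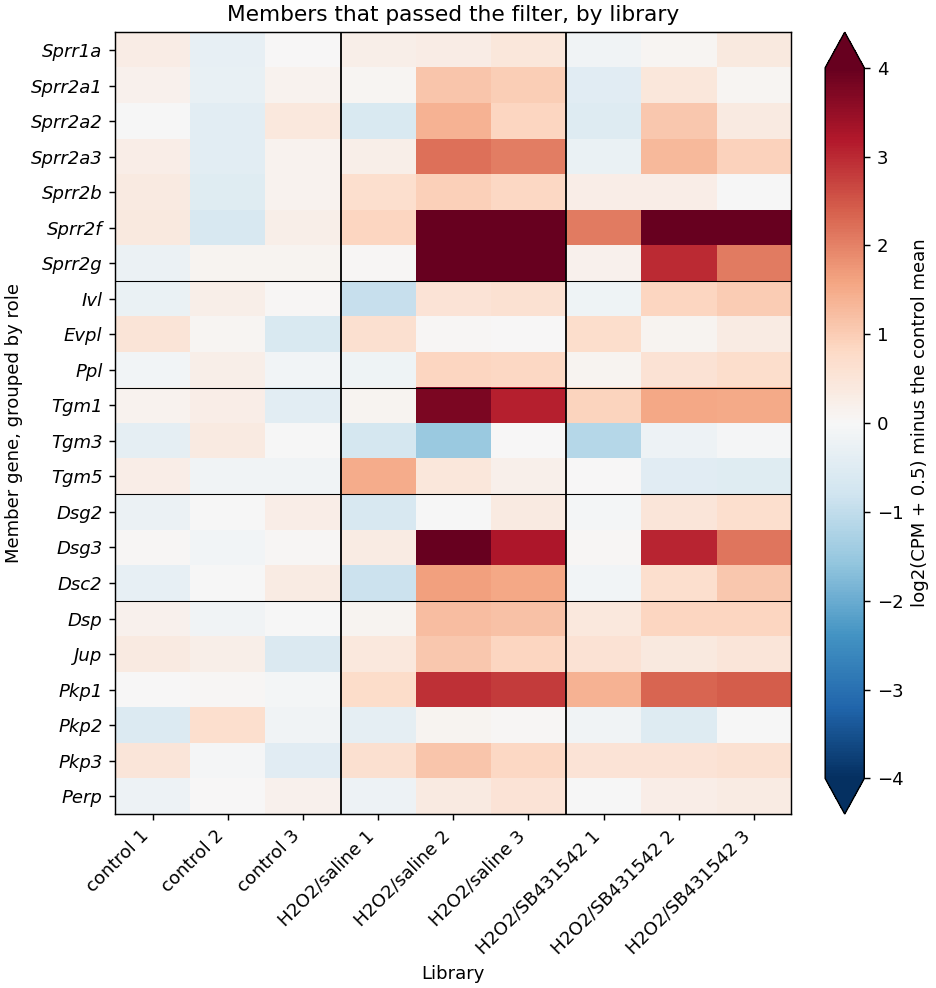
Heat map of the 22 members that passed the filter (rows, grouped by role) in the 9 libraries (columns). Colour gives log2(CPM + 0.5) minus the mean of the 3 controls, and colours end at 4. Red is concentrated in replicates 2 and 3 of both treated groups, most strongly for Sprr2f, Sprr2g, Tgm1, Dsg3 and Pkp1, while most rows of H2O2/saline 1 are close to the controls.

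In the main edgeR fit of all 9 libraries, no member was called in any of the 3 comparisons. For H2O2/saline against control the median log2 fold change of the 22 members was 0.79, against -0.02 over all genes tested, and 19 members were above 0. Sprr2f, Sprr2g and Dsg3 passed the filter through their treated libraries, so the counts and medians over the 22 are descriptions. At an unadjusted p under 0.05, 12 members were higher and 0 lower, and 9.88% of all genes tested were higher at that level. The share of all genes called was itself only 0.0518%. Limma-voom also called 0 members. DESeq2 called 8 members higher (Sprr2a3, Sprr2f, Sprr2g, Tgm1, Dsg3, Dsp, Pkp1 and Pkp3) where it called 7.33% of all genes. With replicate numbers entered as a block, edgeR called 5 members (Sprr2f, Sprr2g, Tgm1, Dsg3 and Pkp1) and 4.79% of all genes.

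The result depended on H2O2/saline 1. Without that library 11 members were called higher by edgeR, namely Sprr2a1, Sprr2a3, Sprr2f, Sprr2g, Ppl, Tgm1, Dsg3, Dsc2, Dsp, Pkp1 and Pkp3, where 9.43% of all genes were called. Without control 1, Pkp3 alone was called, where 1.3% of all genes were called. Without H2O2/saline 2, or without H2O2/saline 3, 0 members and 0.00518% of all genes were called. H2O2/saline 1 was singled out after these members were seen to be low in it. Values without it, here and below, describe that dependence and are no separate support. Counted by library and without a test, 6 members had every H2O2/saline library above every control library (Sprr2b, Sprr2f, Dsg3, Jup, Pkp1 and Pkp3). That is 6 of 22 against 9.68% of all genes tested. Sprr2f and Dsg3 passed the filter through their treated libraries. For Dsg3 the separation rests on 6.0 counts in H2O2/saline 1 against at most 2.0 in a control.

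**Figure D2:**
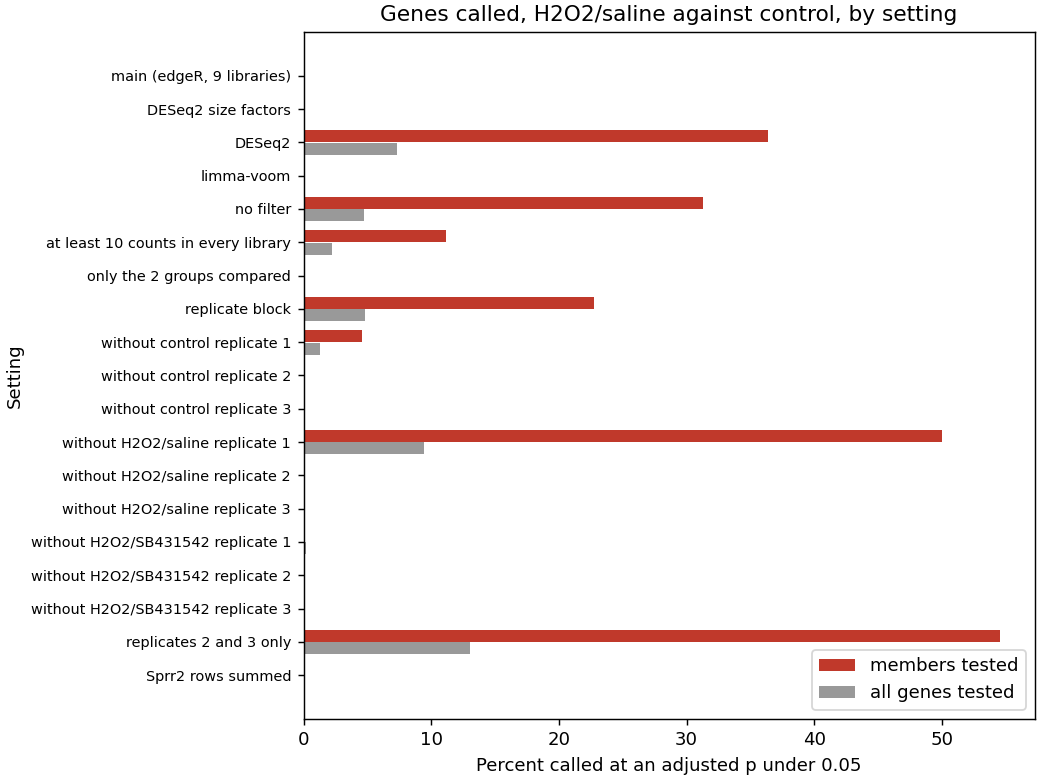
Percent of genes called at an adjusted p under 0.05 (horizontal axis, from 0) for H2O2/saline against control under each setting (vertical axis), for the members tested (red) and for all genes tested (grey). The member bar is 0 in the main edgeR fit, 36.4% with DESeq2, 22.7% with the replicate block and 50% without H2O2/saline 1, where the bar for all genes is at 9.43%.

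The small proline-rich genes lie next to each other on mouse chromosome 3, with the Sprr2 genes in the order Sprr2a1, Sprr2a2, Sprr2a3, Sprr2b, Sprr2d, Sprr2e, Sprr2f, Sprr2g, Sprr2h, Sprr2i and Sprr2k, followed by Sprr1b, Sprr3, Sprr1a and, beyond Sprr4, Ivl. RefSeq lists Sprr2g as a transcribed pseudogene. Of the 14 genes, 7 passed the filter (Sprr1a, Sprr2a1, Sprr2a2, Sprr2a3, Sprr2b, Sprr2f and Sprr2g).

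Sprr2f had the largest fitted difference of all members. In the controls Sprr2f was at 0.529, 0 and 0.412 CPM, in H2O2/saline 1 to 3 at 0.922, 106 and 102 CPM, and in H2O2/SB431542 1 to 3 at 2.78, 45.8 and 29.8 CPM. The group means were 0.314 ± 0.278, 69.6 ± 59.5 and 26.1 ± 21.8 CPM (SD, n = 3), and both treated groups lay above the controls without overlap. The control level rests on 36.0 counts over 3 libraries, and a count of 0, as in control 2, allows up to 0.0792 CPM (3 counts). The edgeR log2 fold change for H2O2/saline against control was 7.78 (SE 1.63), and its Benjamini-Hochberg adjusted p of 0.0600 missed the threshold. Without H2O2/saline 1 it was 8.30 (SE 1.02, adjusted p 0.000594).

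Sprr2g, the next gene on the chromosome, had the same pattern at lower counts. It was at 0.0154, 0.158 and 0.155 CPM in the controls, at 0.123, 12.7 and 12.8 CPM in H2O2/saline 1 to 3, and at 0.175, 4.32 and 2.08 CPM in H2O2/SB431542 1 to 3. H2O2/saline 1 lay inside the control span, so the H2O2/saline and control groups overlapped. For H2O2/saline against control edgeR gave 6.20 on the log2 scale (SE 1.5), with an adjusted p of 0.0739 and 12.6 control counts in all.

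The neighbours of this pair stayed near 0. Sprr2d held 6.0, 17.3 and 0 counts over the 3 libraries of the control, H2O2/saline and H2O2/SB431542 groups. Sprr2e held 0, 7.8 and 6.2 counts, and Sprr2h 0.5, 6.0 and 25.8. Sprr2i and Sprr2k reached at most 16.0 counts in a group. None of these 5 passed the filter, nor did Sprr1b (20.0 to 24.0 counts a group) and Sprr3 (9.0 to 30.0 counts a group).

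The sequences before the gene starts of Sprr2f and 4 of its relatives are shown because Sprr2f had 4086.3 and 4122.2 counts in H2O2/saline 2 and 3, while Sprr2d, Sprr2e and Sprr2h had hardly any. Each stretch is the 210 bases before the gene start on the + strand, 5′ to 3′, from RefSeq (GRCm38.p6): chr3:92316495-92316704 for Sprr2b, chr3:92338930-92339139 for Sprr2d, chr3:92351933-92352142 for Sprr2e, chr3:92364977-92365186 for Sprr2f and chr3:92385475-92385684 for Sprr2h. Capitals mark matches to TGANTCA, the letters bound by AP-1 factors, and to TATAAA, the TATA box.
Sprr2b: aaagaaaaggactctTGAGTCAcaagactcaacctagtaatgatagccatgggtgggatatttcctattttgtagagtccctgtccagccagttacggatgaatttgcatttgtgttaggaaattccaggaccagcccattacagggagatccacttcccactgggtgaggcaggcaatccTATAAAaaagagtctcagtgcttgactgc
Sprr2d: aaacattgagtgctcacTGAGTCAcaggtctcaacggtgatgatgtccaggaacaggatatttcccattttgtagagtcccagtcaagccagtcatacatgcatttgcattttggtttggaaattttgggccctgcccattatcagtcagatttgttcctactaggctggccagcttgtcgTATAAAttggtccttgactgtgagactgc
Sprr2e: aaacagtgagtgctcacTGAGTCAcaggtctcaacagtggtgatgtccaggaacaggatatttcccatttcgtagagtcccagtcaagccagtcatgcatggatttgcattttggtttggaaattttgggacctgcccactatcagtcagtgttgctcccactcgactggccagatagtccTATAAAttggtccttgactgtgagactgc
Sprr2f: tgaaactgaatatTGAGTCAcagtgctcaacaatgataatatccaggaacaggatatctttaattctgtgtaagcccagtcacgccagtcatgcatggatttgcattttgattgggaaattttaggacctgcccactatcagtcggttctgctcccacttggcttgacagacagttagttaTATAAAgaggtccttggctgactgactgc
Sprr2h: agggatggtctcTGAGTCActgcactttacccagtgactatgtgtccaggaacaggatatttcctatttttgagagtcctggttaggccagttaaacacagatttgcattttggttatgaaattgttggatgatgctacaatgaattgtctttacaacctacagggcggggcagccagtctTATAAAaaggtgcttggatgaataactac

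In all 5 stretches the TATAAA match starts at -29 from the gene start, and the TGANTCA match at -193 (Sprr2d and Sprr2e), -195 (Sprr2b), -197 (Sprr2f) or -198 (Sprr2h). In global pairwise alignments that allowed gaps, Sprr2f was identical to Sprr2e at 78.6% of the 210 bases. It was identical to Sprr2d at 76.7%, to Sprr2b at 67.6% and to Sprr2h at 66.2%. Both motifs were thus present in Sprr2f, with its high levels in 2 H2O2/saline libraries, and in Sprr2d, Sprr2e and Sprr2h, with hardly any counts. Searched on both strands in the 250 bases before the gene start, TGANTCA was found in 7 of 10 Sprr2 members and in 6.75% of 32851 RefSeq windows, and TATAAA in 7 of 10 and in 12.4%. Sprr2a1, Sprr2a2 and Sprr2a3 held neither. GGAAGT, an Ets motif, was found in 2 of the 10 and in 19.7% of all windows, and CACCC, a Klf motif, in 2 of the 10 and in 52.0%. Sprr2g has no entry among these windows, and a match describes letters only.

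The 3 Sprr2a genes took 99.3% to 100% of the Sprr2 counts in a library. Their transcripts are so alike that a read often cannot be placed: 89.6% of the stretches of 150 bases in Sprr2a1, 89.0% in Sprr2a2 and 19.0% in Sprr2a3 occur in another of these genes, against 0% in each of the other 11 small proline-rich genes. In stretches of 50 bases some of the other 11 shared sequence too, with 13.7% in Sprr2b (shared with the Sprr2a genes), 12.5% in Sprr2i and 10.2% in Sprr2e. At that length the shared part of Sprr2a3 was 61.1%. The split of counts among the 3 Sprr2a genes is therefore uncertain, most of all between Sprr2a1 and Sprr2a2. The sum over all 11 Sprr2 genes does not depend on it, and was 9509, 6838 and 9386 CPM in the controls, 9099, 20111 and 18321 CPM in H2O2/saline 1 to 3, and 6305, 12545 and 9669 CPM in H2O2/SB431542 1 to 3. H2O2/saline 2 and 3 stood above all other libraries, and H2O2/saline 1 lay between the controls. This sum had a log2 fold change of 0.89 (SE 0.33, adjusted p 0.188 by edgeR) for H2O2/saline against control.

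As the counts were assigned, the make-up of the Sprr2 sum differed in the same libraries. It carries the uncertainty of the Sprr2a split given above. Sprr2a1 took 90.8%, 91.9% and 91.3% of the Sprr2 sum in the controls and 90.6% in H2O2/saline 1, but 82.7% and 83.0% in H2O2/saline 2 and 3. In H2O2/SB431542 1 to 3 it took 90.3%, 85.4% and 85.4%. Sprr2a3 was at 853, 539 and 794 CPM in the controls, at 843, 3307 and 2969 CPM in H2O2/saline 1 to 3 and at 595, 1745 and 1357 CPM in H2O2/SB431542 1 to 3. Its log2 fold change for H2O2/saline against control was 1.70 (SE 0.48, adjusted p 0.104 by edgeR). Sprr2a1 itself was at 8635, 6285 and 8566 CPM in the controls, at 8239, 16635 and 15201 CPM in H2O2/saline 1 to 3 and at 5693, 10711 and 8257 CPM in H2O2/SB431542 1 to 3. Its log2 fold change was 0.77 (SE 0.31, adjusted p 0.217 by edgeR).

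In Sprr2b, H2O2/saline 1 lay with the other libraries of its group. The gene was at 4.41, 2.27 and 3.70 CPM in the controls, at 5.70, 6.91 and 6.28 CPM in H2O2/saline 1 to 3 and at 4.11, 4.18 and 3.31 CPM in H2O2/SB431542 1 to 3. All 3 H2O2/saline libraries lay above all control and all H2O2/SB431542 libraries. Against the controls this was a log2 fold change of 0.86 (SE 0.31, adjusted p 0.179 by edgeR). Sprr2b lay far below Sprr2a1, and 13.7% of its stretches of 50 bases also occur in the Sprr2a genes. Whether reads of those genes add to its counts was not tested. Sprr1a ranged over 1811 to 2779 CPM in the controls, 2635 to 3112 CPM in the H2O2/saline group and 2070 to 2970 CPM in the H2O2/SB431542 group, and Sprr2a2 over 10.1 to 41.9 CPM in all 9 libraries, with groups that overlapped in both genes.

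**Figure D3:**
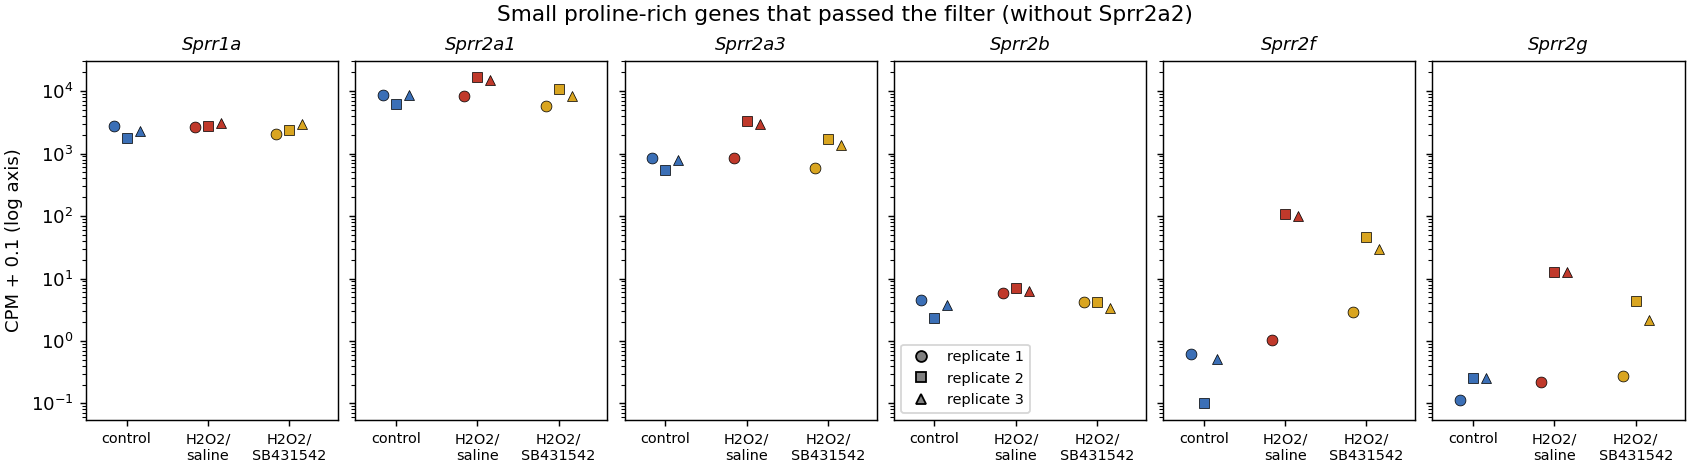
CPM + 0.1 on a log axis for 6 small proline-rich genes, 1 point per library, with the groups on the horizontal axis and the replicate number as the symbol. Sprr2f and Sprr2g lie at 102 to 106 and 12.7 to 12.8 CPM in H2O2/saline 2 and 3 and below 1 CPM in H2O2/saline 1, while the 9 points of Sprr1a form a nearly level band.

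The envelope precursors and plakins differed less. Involucrin (Ivl), an early scaffold of the envelope, was at 92.3, 131 and 117 CPM in the controls, at 59.2, 166 and 172 CPM in H2O2/saline 1 to 3 and at 99.3, 206 and 229.9 CPM in H2O2/SB431542 1 to 3. H2O2/saline 1 was the lowest and H2O2/SB431542 3 the highest of the 9 libraries. The log2 fold change for H2O2/saline against control was 0.22 (SE 0.38, adjusted p 0.829 by edgeR). Periplakin (Ppl), a plakin of both envelope and desmosome, was at 74.3, 93.3 and 73.4 CPM in the controls, at 70.5, 146 and 141 CPM in H2O2/saline 1 to 3 and at 86.7, 119 and 129 CPM in H2O2/SB431542 1 to 3. It was again H2O2/saline 1 that lay below the controls. Its log2 fold change of 0.57 (SE 0.27, adjusted p 0.295) was called only without that library (0.79, SE 0.21, adjusted p 0.0350, edgeR).

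Envoplakin (Evpl), the partner of periplakin, was at 493, 366 and 227 CPM in the controls, at 542, 359 and 352 CPM in H2O2/saline 1 to 3 and at 565, 370.1 and 435 CPM in H2O2/SB431542 1 to 3. The highest library of each group was replicate 1. H2O2/saline against control gave a log2 fold change of 0.21 (SE 0.29, adjusted p 0.778 by edgeR). Cnfn, which encodes cornifelin, was listed at 0 in all 9 libraries, where a count of 0 allows up to 0.0683 to 0.0866 CPM (3 counts per library, for counting error only).

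The transglutaminase Tgm1, the membrane-bound enzyme of the envelope, was at 2.62, 2.87 and 1.59 CPM in the controls, at 2.55, 37.6 and 23.6 CPM in H2O2/saline 1 to 3 and at 4.68, 7.71 and 7.59 CPM in H2O2/SB431542 1 to 3. The means were 2.36 ± 0.677, 21.2 ± 17.6 and 6.66 ± 1.71 CPM (SD, n = 3). H2O2/saline 1 was level with the controls, whereas all 3 H2O2/SB431542 libraries lay above them. The log2 fold change for H2O2/saline against control was 3.17 (SE 0.70, adjusted p 0.0632 by edgeR), and 3.64 (SE 0.34, adjusted p 0.000232) without H2O2/saline 1.

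Tgm5, an enzyme of the same family that acts in the epidermis, was at 0.582, 0.317 and 0.309 CPM in the controls, at 2.02, 0.724 and 0.520 CPM in H2O2/saline 1 to 3 and at 0.411, 0.150 and 0.137 CPM in H2O2/SB431542 1 to 3. It was the only member with its highest level in H2O2/saline 1, and it rests on 46.0, 119.0 and 29.0 counts in the 3 groups. The log2 fold change for H2O2/saline against control was 1.43 (SE 0.81, adjusted p 0.395 by edgeR), and 0.57 (SE 0.97, adjusted p 0.76) without H2O2/saline 1. Tgm3 ranged from 2.67 to 4.70 CPM in the controls and from 0.931 to 3.57 CPM in the H2O2/saline group, with a log2 fold change of -0.75 (SE 0.52, adjusted p 0.50).

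Among the desmosomal cadherins the difference was largest for Dsg3. This desmoglein is known from the basal layers of stratified epithelia. Dsg3 was at 0.0529, 0 and 0.0516 CPM in the controls, at 0.173, 9.68 and 4.51 CPM in H2O2/saline 1 to 3 and at 0.0483, 3.95 and 1.87 CPM in H2O2/SB431542 1 to 3. The controls held 4.0 counts in all, against 562.0 and 242.0 counts in the treated groups, and H2O2/SB431542 1 with 2.0 counts was no higher than the controls. The log2 fold change for H2O2/saline against control was 6.98 (SE 1.68, adjusted p 0.0724 by edgeR), and 7.49 (SE 1.31, adjusted p 0.00401) without H2O2/saline 1.

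Its frequent companion Dsc3 did not pass the filter but stood highest in the same libraries. Dsc3 held 1.0, 1.0 and 0 counts in the controls, 4.0, 27 and 18 in H2O2/saline 1 to 3 and 1.0, 2.0 and 0 in H2O2/SB431542 1 to 3. Dsc2, the desmocollin of simple as well as stratified epithelia, was at 7.38, 9.19 and 11.9 CPM in the controls, at 4.97, 30.4 and 28.3 CPM in H2O2/saline 1 to 3 and at 8.62, 15.2 and 20.1 CPM in H2O2/SB431542 1 to 3. Dsc2 in H2O2/saline 1 was the lowest of the 9 libraries, and the other H2O2/saline libraries were the highest. H2O2/saline against control gave 1.16 on the log2 scale (SE 0.53, adjusted p 0.276 by edgeR), and 1.58 (SE 0.32, adjusted p 0.00895) without H2O2/saline 1.

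Dsg2, the desmoglein found in nearly all epithelia, was at 40.5, 47.5 and 57.4 CPM in the controls, at 30.6, 47.5 and 61.9 CPM in H2O2/saline 1 to 3 and at 45.6, 66.9 and 76.1 CPM in H2O2/SB431542 1 to 3. Its groups overlapped in every comparison, with a log2 fold change of -0.05 (SE 0.27, adjusted p 0.950 by edgeR) for H2O2/saline against control. The desmogleins and desmocollins that mark the upper epidermis were nearly absent: Dsg1a held 6.0 counts in H2O2/SB431542 3 and 0 elsewhere, and Dsc1 held 4.0 in control 2, 6.0 in H2O2/SB431542 1 and 0 elsewhere.

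All 6 plaque genes passed the filter, and 4 of them had an unadjusted p under 0.05 for H2O2/saline against control. Pkp1, a plakophilin typical of stratified epithelia, had the smallest p of all members. It was at 16.6, 16.9 and 15.6 CPM in the controls, at 27.7, 128 and 117 CPM in H2O2/saline 1 to 3 and at 43.5, 84.5 and 89.6 CPM in H2O2/SB431542 1 to 3. All 6 treated libraries lay above the controls, which were close to each other (16.4 ± 0.697 CPM, SD, n = 3). Pkp1 had a log2 fold change of 2.47 (SE 0.47, adjusted p 0.0600 by edgeR), and 2.86 (SE 0.27, adjusted p 0.000232) without H2O2/saline 1.

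Desmoplakin (Dsp), which ties the plaque to keratin filaments, was at 167, 136 and 147 CPM in the controls, at 162, 349 and 334 CPM in H2O2/saline 1 to 3 and at 201, 274 and 270.4 CPM in H2O2/SB431542 1 to 3. Its log2 fold change was 0.91 (SE 0.27, adjusted p 0.114 by edgeR), with H2O2/saline 1 among the controls. Plakoglobin (Jup), shared by desmosomes and adherens junctions, was at 559, 511 and 290.3 CPM in the controls, at 584, 918 and 798 CPM in H2O2/saline 1 to 3 and at 656, 567 and 615 CPM in H2O2/SB431542 1 to 3. Every treated library was above every control, by little in the case of H2O2/saline 1 and H2O2/SB431542 2. Jup had a log2 fold change of 0.76 (SE 0.26, adjusted p 0.152 by edgeR).

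Pkp3, the plakophilin of most epithelia, was at 173, 120.0 and 89.1 CPM in the controls, at 190.4, 266 and 216 CPM in H2O2/saline 1 to 3 and at 179, 179.8 and 188 CPM in H2O2/SB431542 1 to 3. Its 3 groups did not overlap: the controls were lowest, the H2O2/SB431542 libraries in the middle and the H2O2/saline libraries highest. The log2 fold change for H2O2/saline against control was 0.82 (SE 0.24, adjusted p 0.108 by edgeR), and 1.11 (SE 0.21, adjusted p 0.0391) without control 1. Pkp2, which is also a plaque protein of heart muscle, and Perp, a membrane protein of desmosomes, had log2 fold changes of -0.15 (SE 0.31) and 0.27 (SE 0.22), with adjusted p values of 0.863 and 0.578.

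**Figure D4:**
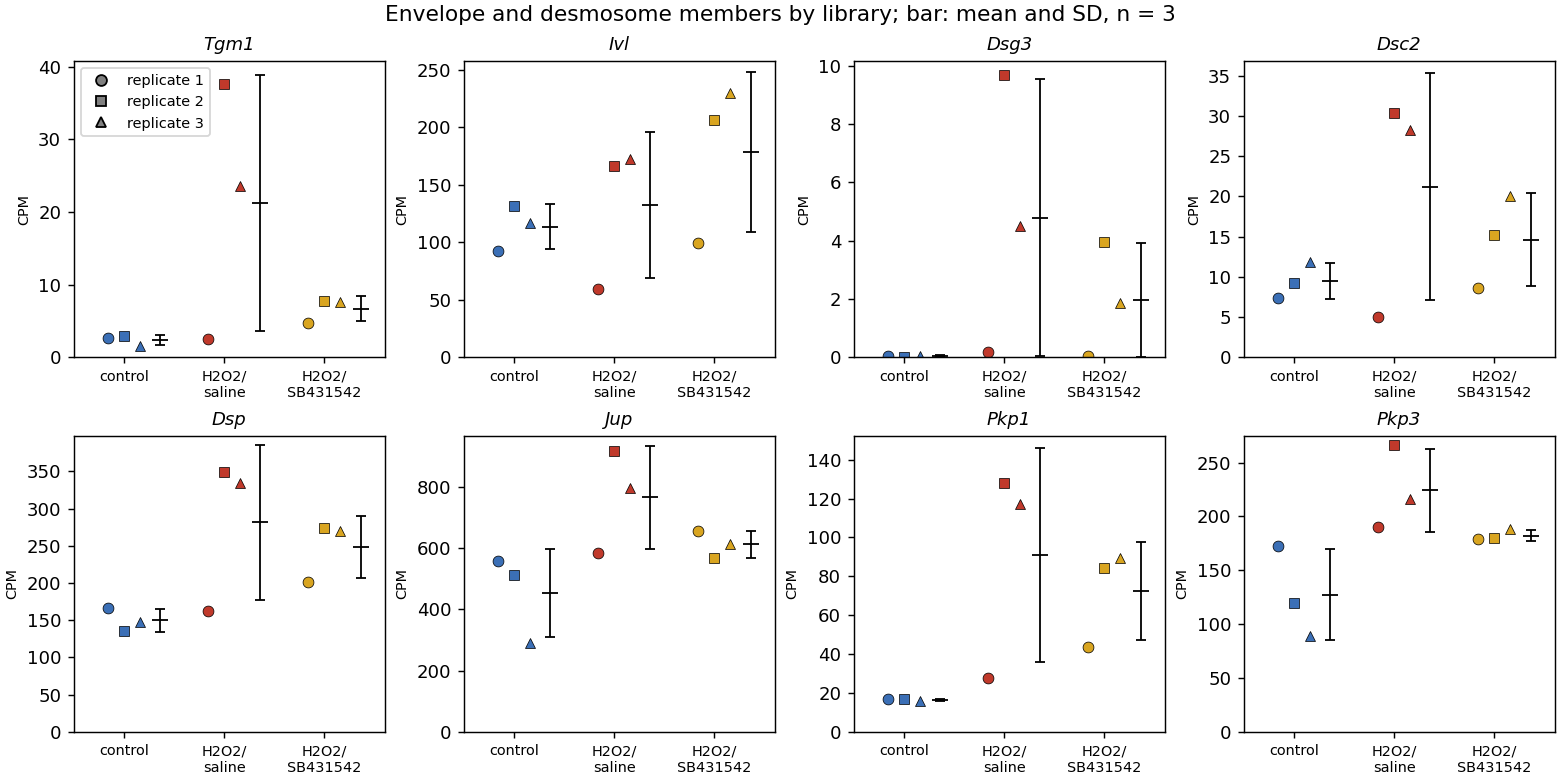
CPM of 8 envelope and desmosome genes by library, with the groups on the horizontal axis, the replicate number as the symbol, and the bars as mean ± SD (n = 3). In Tgm1, Dsg3, Dsc2, Dsp and Pkp1 the circle of H2O2/saline 1 lies far below the other H2O2/saline points, and in Pkp3 the 3 groups do not overlap.

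Against the H2O2/saline-treated group, the H2O2/SB431542-treated group held less RNA of most members on average, with no member called. The median log2 fold change over the 22 members was -0.32, against 0.02 over all genes tested, and 18 of the 22 were below 0. At an unadjusted p under 0.05, 4 members were lower (Sprr2a1, Sprr2b, Tgm1 and Tgm5) and 0 higher, and 4.98% of all genes were lower at that level. The share of all genes called by edgeR was 0.0%. DESeq2 called 0 members and 27 of 19314 genes, and limma-voom called 0 members and 0 genes. In Sprr2b, Tgm5 and Pkp3 every H2O2/SB431542 library was below every H2O2/saline library, that is 3 of 22 against 7.37% of all genes tested.

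Both comparisons share the H2O2/saline libraries, and Tgm1, Sprr2g, Sprr2f and Dsg3 stood high in H2O2/saline 2 and 3. By edgeR the log2 fold change for H2O2/SB431542 against H2O2/saline was -1.67 for Tgm1 (SE 0.66, adjusted p 0.531), -1.97 for Sprr2g (SE 1.16, adjusted p 0.652), -1.41 for Sprr2f (SE 1.16, adjusted p 0.762) and -1.29 for Dsg3 (SE 1.18, adjusted p 0.784). The low-count Tgm5, highest in H2O2/saline 1, had -2.21 (SE 0.84, adjusted p 0.528), and -1.37 (SE 0.97, adjusted p 0.504) without that library. The sum of the Sprr2 genes had -0.74 (SE 0.33, adjusted p 0.556). Without H2O2/saline 1, Tgm1 was called lower (-2.16, SE 0.33, adjusted p 0.0187), as the only member, where 1.02% of all genes were called.

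All 6 plaque genes had log2 fold changes for H2O2/SB431542 against H2O2/saline between -0.33 and -0.07. For Pkp1, the furthest from 0, the estimate was -0.33 with an SE of 0.44. Ivl (0.43, SE 0.38), Dsg2 (0.43, SE 0.27), Tgm3 (0.25, SE 0.52) and Evpl (0.13, SE 0.29) were the members above 0, with adjusted p values of 0.675 to 0.926 by edgeR.

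Against the controls, the H2O2/SB431542-treated group had higher means of most members, again with none called. The median log2 fold change was 0.45, against 0.00 over all genes tested, and 19 of the 22 members were above 0. At an unadjusted p under 0.05, 7 members were higher (Sprr2f, Sprr2g, Tgm1, Dsg3, Dsp, Pkp1 and Pkp3) and 0 lower, and 4.36% of all genes were higher at that level. Over all genes 0.0155% were called, and limma-voom called 0 members. DESeq2 called Sprr2f and Pkp1, where it called 0.947% of all genes, and the same genes were called by edgeR without H2O2/saline 1, where 0.43% of all genes were called.

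By library the H2O2/SB431542 and control groups were separate in 7 members, all higher in the treated group (Sprr2f, Sprr2g, Tgm1, Dsp, Jup, Pkp1 and Pkp3). That is 7 of 22 against 7.95% of all genes tested. Sprr2f and Sprr2g passed the filter through their treated libraries, so this count is a description. For Sprr2g the separation rests on 7.2 counts in H2O2/SB431542 1 against 6.0 in control 2 and in control 3. The edgeR log2 fold change was 6.36 for Sprr2f (SE 1.56, adjusted p 0.353), 5.68 for Dsg3 (SE 1.65, adjusted p 0.370), 4.23 for Sprr2g (SE 1.43, adjusted p 0.453), 2.15 for Pkp1 (SE 0.46, adjusted p 0.290) and 1.49 for Tgm1 (SE 0.67, adjusted p 0.643). The Sprr2 sum was close to the control level, with 0.15 (SE 0.33, adjusted p 0.989). Sprr2f and Pkp1 thus lay above the controls in all 3 H2O2/SB431542 libraries, while the Sprr2 sum did not.

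**Figure D5:**
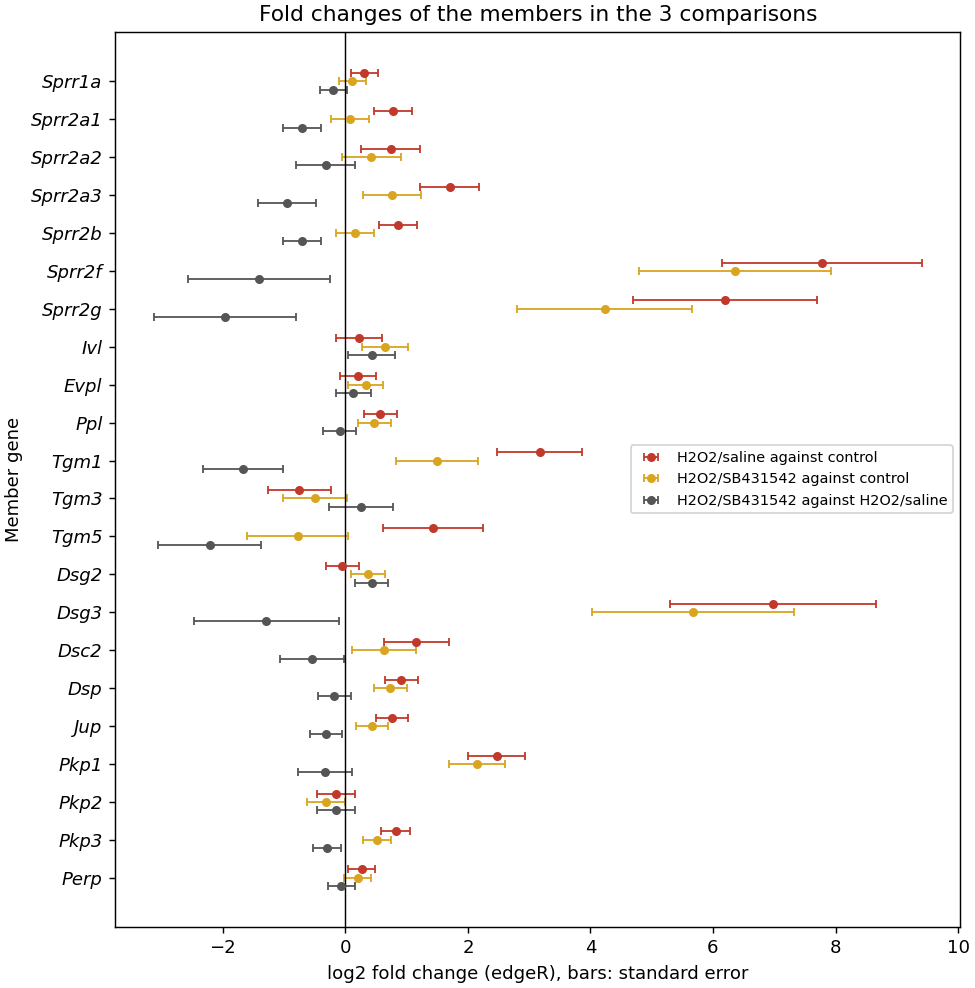
edgeR log2 fold changes (horizontal axis, bars: standard error) of the 22 members (vertical axis) in the 3 comparisons. Sprr2f, Sprr2g and Dsg3 lie at 4.23 to 7.78 against control with wide bars, Pkp1 lies at 2.47 and 2.15 with narrower ones, and 18 of the 22 points of the comparison between the treated groups (grey) lie left of 0.

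Other genes of the same structures gave the following counts. Of 52 further genes of the envelope and of epidermal differentiation, 17 passed the filter, with a median log2 fold change of 1.10 for H2O2/saline against control. Among them 15 were above 0 and 0 were called, and 8 were higher at an unadjusted p under 0.05. The largest differences were in Calml3, a calmodulin-like protein of epithelia (5.05, SE 1.24, adjusted p 0.0752 by edgeR), and in the cysteine protease inhibitors Csta1 (4.92, SE 1.25, adjusted p 0.0826) and Stfa3 (2.57, SE 1.41, adjusted p 0.374). Their controls held 15.0, 8.5 and 4.0 counts in all, so these values rest on H2O2/saline counts. For H2O2/SB431542 against H2O2/saline the median of the list was -0.46.

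Of 11 further desmosome and adherens junction genes, 8 passed the filter, with a median of 0.27 and 0 called. At an unadjusted p under 0.05, 2 of the 8 were higher, the cadherins Cdh3 (0.85, SE 0.31, adjusted p 0.182) and Cdh1 (0.77, SE 0.22, adjusted p 0.103 by edgeR), and the next was Nectin1 (0.33, SE 0.30, adjusted p 0.620). Of 5 other transglutaminases 3 passed the filter: Tgm4 had -1.36 (SE 1.14), Tgm2 0.48 (SE 0.19) and F13a1 -0.29 (SE 0.31), with adjusted p values of 0.210 to 0.701 by edgeR.

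All 21 regulators of epithelial differentiation passed the filter, with a median of 0.13 and 0 called. At an unadjusted p under 0.05, 4 were higher and 1 lower. Fosl1, a member of the AP-1 family, was at 1.19, 0.924 and 1.34 CPM in the controls, at 1.04, 10.8 and 6.93 CPM in H2O2/saline 1 to 3 and at 1.06, 1.30 and 2.38 CPM in H2O2/SB431542 1 to 3. It shared the split of the H2O2/saline group with the members, and had a log2 fold change of 2.44 (SE 0.67, adjusted p 0.0974 by edgeR). The next were the epithelial Ets factor Elf3 (1.0, SE 0.23, adjusted p 0.0679) and the epithelial repressor Ovol2 (-0.66, SE 0.31, adjusted p 0.302). The 1 lower at an unadjusted p under 0.05 was Trp63, the p63 factor of basal epithelial cells (-0.57, SE 0.22, adjusted p 0.206), named after its values were seen.

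Some cell type markers differed in the same libraries as these genes, and others did not. In bulk samples, fewer or more cells of a type and less or more RNA per cell cannot be told apart. The summed level of 7 basal and squamous keratins was 1369 to 2946 CPM in the controls, 5288, 9050.1 and 7667 CPM in H2O2/saline 1 to 3 and 5125 to 5458 CPM in the H2O2/SB431542 group. All 7 keratins had a positive log2 fold change for H2O2/saline against control, from 1.37 to 9.07, and none was called. In H2O2/saline 1 the sum was mostly Krt5 (4120.4 CPM) and Krt4 (1153 CPM). Krt14 (9.91 CPM) and Krt6b (0.381 CPM) lay within the control span in that library. Krt6a was at 1.17 CPM there, against 576 and 416 CPM in H2O2/saline 2 and 3. The sum of 6 general epithelial genes was 6160.1 to 9686 CPM in the controls and 9448, 14036 and 12146 CPM in H2O2/saline 1 to 3, and was 8183 to 8967 CPM in the H2O2/SB431542 group. Of the 10 urothelial markers, none was at 0, and their sum was 22905 to 35065 CPM in the controls, 29833 to 33225 CPM in the H2O2/saline group and 24149 to 26539.6 CPM in the H2O2/SB431542 group, so the labelled tissue was present in every library. This sum mixes keratins and uroplakins, the membrane proteins of the urothelial surface. Upk3a was at 5397, 4192 and 4536 CPM in the controls and at 4119, 1599.7 and 1635 CPM in H2O2/saline 1 to 3 (log2 fold change -0.94, SE 0.33, adjusted p 0.168 by edgeR). Upk2 had -0.85 (SE 0.33, adjusted p 0.204). Both uroplakins were thus lowest in H2O2/saline 2 and 3, the libraries in which many members were highest. Upk1a (-0.79, SE 0.36, adjusted p 0.286 by edgeR) was also lowest there. Not all uroplakins did the same: Upk3b had -0.23 (SE 0.24, adjusted p 0.684) and was lowest in H2O2/SB431542 2. Upk1b went the other way, with 0.23 (SE 0.19, adjusted p 0.595) and its highest level in H2O2/saline 3.

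Markers of other tissue also differed between libraries. The sum of 5 smooth muscle genes was 17974 CPM in control 1 and 40611 and 35029.5 CPM in control 2 and 3, against 19852 to 26464 CPM in the H2O2/saline group. The sum of 6 leukocyte genes, of which Itgam was listed at 0 throughout, was 165 to 248 CPM in the controls. It was 448 to 744 CPM in the H2O2/saline group and 369 to 507 CPM in the H2O2/SB431542 group. Most of it was Cd74, at 361, 591 and 531 CPM in H2O2/saline 1 to 3. Ptprc was at 1.80 to 2.46 CPM in the controls and at 1.35, 1.75 and 4.72 CPM in H2O2/saline 1 to 3. Its log2 fold change was 0.30 (SE 0.51, adjusted p 0.827 by edgeR), the lowest of the 5 leukocyte genes tested, all positive. The sum of 4 fibroblast genes was 1541 to 2835 CPM in the controls. It was 3504 to 3673 CPM in the H2O2/saline group and 2726 to 4136 CPM in the H2O2/SB431542 group. For H2O2/saline against control 3 of these genes had a positive log2 fold change, and Dcn went the other way (-0.52, SE 0.20, adjusted p 0.192 by edgeR). Dcn was at 258, 292 and 302 CPM in the controls and at 181, 182 and 231 CPM in H2O2/saline 1 to 3. The sum of 3 endothelial genes was 35.2 to 56.6 CPM in the controls, 46.5, 102 and 83.6 CPM in H2O2/saline 1 to 3 and 55.3 to 65.2 CPM in the H2O2/SB431542 group. Both fat markers together were at 26.1, 18.3 and 7.19 CPM in the replicate 1 libraries of the control, H2O2/saline and H2O2/SB431542 groups and at 0.198 to 0.865 CPM in the other 6 libraries. The 6 epidermal markers summed to 7.34 to 12.2 CPM in groups that overlapped, and Flg2 was at 0 in all. The part of these markers in the results was not tested.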

How the data were processed

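Poly-A RNA of 9 bladder samples was sequenced paired-end (150 bp, Illumina Novaseq) and processed by the study in strand NGS. The build is GRCm39 per the labels. The aligner, annotation, counting rule and strand setting are details not given in the sources used here. Raw columns made by the authors hold expected counts per gene, of which 32.0% of the nonzero values are whole numbers with no tolerance. The 9 normalized columns deposited beside them were not used.

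Groups came from the labels. The members and all gene lists were chosen with earlier results of these data known. Expected counts were rounded, scaled by TMM and fitted over all 9 libraries with edgeR 4.0.16 in R 4.3.3. The fit used filterByExpr, the quasi-likelihood test and Benjamini-Hochberg adjustment over 19314 genes. It was checked on simulated counts that had the same spread for every gene and no library split within a group. That check does not cover the split of the H2O2/saline group. A block fit used the replicate number. Deviations from the group means correlated between equal numbers at 0.312, 0.119 and 0.112 (control and H2O2/saline) and at 0.514, 0.201 and 0.129 (H2O2/saline and H2O2/SB431542), all over 0.1. The labels do not state a pairing, and a link among the replicate 1 libraries alone could give these values. DESeq2 1.42.0 and limma 3.58.1 were alternatives. Values in all libraries are given for members with an unadjusted p under 0.05 in 1 comparison, a call in a planned setting or the highest mean of their role, up to 5 a role. Of other lists, the 3 largest changes among tested genes are named. Shared stretches were counted in GENCODE M21 transcripts. Gene order and promoters came from RefSeq tables (GRCm38.p6), which cover 20 of the 33 members and give no coordinates for the counts themselves.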

Additional observations from a re-analysis of the deposited data

How the results depend on the processing

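In the main setting edgeR called 0 members in each comparison, and limma-voom and DESeq2 size factors in edgeR also gave 0. For H2O2/saline against control, DESeq2 called 8 members, no filter on low counts 10 of 32 (and 1579 genes in all), at least 10 counts in every library 2 of 18 (Pkp1 and Tgm1, 323 genes in all), and replicates 2 and 3 only 12 (2521 genes in all). With the replicate block 5 members were called. Leaving out 1 library gave 0 to 11 members, with 1 (Pkp3) without control 1 and 11 without H2O2/saline 1. For H2O2/SB431542 against H2O2/saline, no filter called 4 members (274 genes in all), replicates 2 and 3 only 3 (Tgm1, Sprr2a3 and Sprr2g, 234 genes in all), and leaving out 1 library 0 to 1, the 1 being Tgm1 without H2O2/saline 1; the block changed no call. For H2O2/SB431542 against control, DESeq2 called 2, no filter 5 (439 genes in all), a fit of only the 2 groups compared 2 (Pkp1 and Sprr2f, 23 genes in all), the replicate block 1 (Sprr2g, 35 genes in all), replicates 2 and 3 only 8 (449 genes in all), and leaving out 1 library 0 to 2, the 2 being Pkp1 and Sprr2f without H2O2/saline 1. Here the numbers correlated at 0.321, 0.0399 and 0.077. Every called member lay in the direction of its value in the main setting. Apart from settings that tested fewer or more genes, or fewer libraries, the cause was not tested.

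The median log2 fold change of the members stayed between 0.64 and 0.97, between -0.56 and -0.17 and between 0.40 and 0.60 in the 3 comparisons when 1 library was left out. Small fold changes turned sign. Over the fits without 1 library, H2O2/saline against control ranged as follows: Ivl from -0.02 to 0.53, Evpl from -0.08 to 0.51 and Dsg2 from -0.31 to 0.13; Dsg2 was at 0.02 with replicates 2 and 3 only. H2O2/SB431542 against H2O2/saline ranged as follows: Evpl from -0.06 to 0.4, Ppl from -0.32 to 0.08, Dsp from -0.42 to 0.0032 and Pkp1 from -0.72 to 0.0016. H2O2/SB431542 against control ranged as follows: Sprr2a1 from -0.18 to 0.28 and Sprr2b from -0.08 to 0.36; with the replicate block Sprr2a1 was at -0.0017. Few counts, as for Dsg3 and Sprr2g in the controls and for the 11 members not tested, limit what can be read from their levels.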
